A study of Nematostella vectensis with 27 samples.

Results

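The subject is a set of 3691 accessible regions (peaks) of the sea anemone Nematostella vectensis. All lie outside protein-coding and lncRNA genes and away from any protein-coding gene. They were taken from a list of 112728 peaks made for the whole series by single-cell ATAC-seq, in which the Tn5 transposase tags open chromatin in single nuclei. A peak was counted as distal when its centre lay outside every protein-coding and every lncRNA gene of the RefSeq annotation and over 5 kb away from any protein-coding gene, and when another peak started within 5000 bp of its own start. The positions of the peaks and of the genes therefore chose the set, and counts by those positions are given as a description. The series held 27 libraries in 9 groups. Whole wild-type adults gave 16 fixed and 1 fresh ATAC libraries, 1 fresh multiome sample split into ATAC and RNA libraries, and 1 single-cell 5′ RNA library. Whole wild-type gastrulae, pooled 300 at a time and collected 26 hours after fertilization, gave 1 fixed and 1 fresh library. Neurons sorted from polyps of the NvElav1::mOrange line, in which the elav1 reporter drives the fluorescent protein used for the sort, gave 2 fixed and 3 fresh libraries. The series has a single peak list, which names no library, cell type, score or strand, and which libraries it was called on is not given in the sources used here. Therefore adults, gastrulae and neurons could not be compared, read depth is unknown, and a peak seen in 1 cell type cannot be told from a peak seen in all.

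In animals, transcription factors bind promoters next to the start of transcription and also enhancers, which can lie inside genes or at a distance between them. Both kinds of element are usually free of nucleosomes while in use, which is why they appear in ATAC-seq. Nematostella has a compact genome for an animal, with genes close to each other, and cnidarians are known to use distal enhancers as bilaterian animals do. Accessibility alone does not show that a region is an enhancer, and no target gene can be read from a position. The deposited list gives positions only, and the sequences of the peaks were not analysed here.

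The set was small and came out of the list in steps. Of 112673 peaks on the 15 chromosomes, 35758 had their centre outside protein-coding genes and 32436 were also outside lncRNA genes. Of these intergenic peaks, 4161 (12.8%) were more than 5 kb from a protein-coding gene. Among them, 3691 had another peak within 5000 bp and form the set called distal peaks here, which is 3.28% of the peaks on chromosomes. The remaining 470 had none and are called isolated peaks. Genes of other classes were not excluded, and 127 distal peaks (3.44%) had their centre inside one. The limits cut through a continuous range. The distal peaks nearest to the 5-kb limit lay 5002.5, 5003 and 5004.5 bp from a gene end, and the intergenic peaks just short of it lay at 4999.5, 4997 and 4996 bp. For the neighbour, the widest distances inside the limit were 4978, 4974 and 4967 bp, and the nearest isolated peaks had theirs at 5014, 5014 and 5031 bp.

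Distal sequence, defined by the same gene distances, made up 14.3% ± 5.34 of a chromosome (SD, n = 15 chromosomes) and was sparsely occupied. All intergenic peaks over 5 kb from a coding gene, isolated ones included, had a density of 112 per Mb over 37.25 Mb. Intergenic sequence up to 5 kb from a coding gene held 669 peaks per Mb, and sequence inside coding genes but over 5 kb from their ends held 331 per Mb. By chromosome the density ranged from 70.9 to 208 per Mb in distal sequence, from 566 to 756 per Mb in intergenic sequence up to 5 kb from a gene, and from 299 to 368 per Mb deep inside genes, and these ranges did not overlap. The comparison is a description, since position chose the set.

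Each chromosome carried between 173 distal peaks (chromosome 9) and 397 (chromosome 1), with a mean of 246 ± 56.8 (SD, n = 15). Their share of all peaks of the chromosome was lowest on chromosome 2, at 1.98%, and highest on chromosome 15, at 4.76%. The chromosomes with the most distal sequence were not those with the densest occupation. Chromosome 5 had the most, 4.35 Mb, with 69.4 distal peaks per Mb, and chromosome 12 had the lowest density, 58.6 per Mb in 3.50 Mb. Chromosome 6 had the least distal sequence, 1.49 Mb, and the highest density, 196 per Mb.

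Distances from coding genes were short for most distal peaks and very long for a few. Their median distance to a coding gene was 8911 bp, and the middle 50% lay 6429 to 15520 bp away. In all, 2136 peaks (57.9%) lay 5 to 10 kb from a gene and 864 (23.4%) lay 10 to 20 kb away. At the other end, 290 peaks (7.86%) were more than 80 kb from any coding gene. The farthest 3 lay on chromosome 8, 809 to 810 kb beyond LOC125570141, the last coding gene annotated there. The last of them ended at base 17359985, where the list ends on that chromosome.

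Neighbouring distal peaks lay close together. The nearest peak started a median of 624 bp away, and within 1000 bp for 2510 of the 3691 (68.0%). For 3227 distal peaks (87.4%) that neighbour was another distal peak. For 329 it was an intergenic peak closer to a coding gene, and for 135 a peak inside an lncRNA gene. Peaks deep inside coding genes had a nearly equal median, 615 bp, and intergenic peaks up to 5 kb from a coding gene a shorter one, 456 bp. The 5000-bp limit bounds these distances for the distal peaks only.

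The stretches of sequence free of coding genes were the units in which distal peaks were found. A stretch between 2 coding genes must exceed 10 kb to hold one, and of 1520 such stretches 805 (53.0%) did. Together with 20 stretches at chromosome ends, 825 stretches held the set. The median stretch with any had 3 distal peaks (interquartile range 1 to 5), and the 84 stretches with 10 or more held 1352 of them (36.6%). The density of distal peaks fell with the length of the stretch. Isolated peaks were not counted in it, and the neighbour rule left out a larger part of the peaks far from genes. It kept 2136 of 2261 intergenic peaks at 5 to 10 kb from a coding gene, but 290 of 443 beyond 80 kb. How far this adds to the fall was not tested. The density here is per Mb of sequence beyond 5 kb from the edges of the stretch, lncRNA gene bodies included. No distal peak can lie in those bodies, so these values are not on the scale of the densities in distal sequence. Between coding genes, stretches of 10 to 20 kb held 256 distal peaks per Mb and those of 20 to 40 kb 236 per Mb. Those of 40 to 100 kb held 128 per Mb, and the 66 stretches over 100 kb only 28.0 per Mb. The 66 longest stretches made up 20.9 Mb of that sequence and held 586 distal peaks, whereas the 358 stretches of 20 to 40 kb held 1390 in 5.90 Mb.

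**Figure D1:**
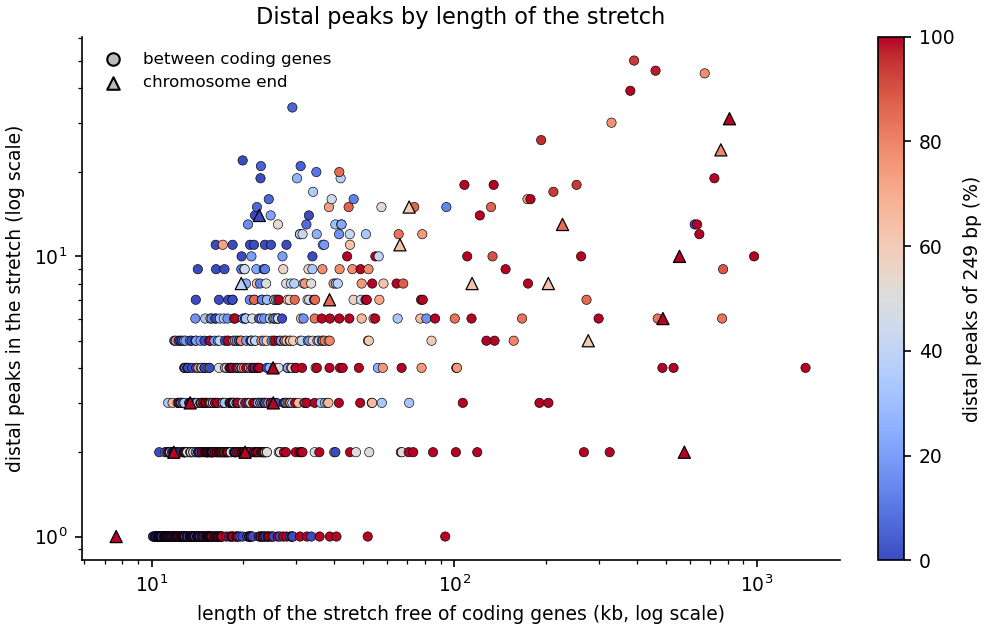
Number of distal peaks (log scale) against the length of the stretch free of coding genes in kb (log scale) for the 825 stretches that held any; each point is 1 stretch, triangles are stretches at a chromosome end, and the colour gives the percentage of distal peaks of the short length (1 bp under 250 bp). The stretch of 29.2 kb with 34 distal peaks, 2 of them short, and that of 392 kb with 50, of which 47 were short, stand at the top of the left and the right side.

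Distal peaks also formed runs, that is, chains of distal peaks whose successive starts were at most 5000 bp apart. There were 1150 runs, of which 289 consisted of a single distal peak whose neighbour was not in the set. The largest run, at bases 12411623 to 12429693 of chromosome 1 (jaNemVect1.1), held 34 distal peaks in 18.1 kb. Their starts were a median of 454 bp apart, between 213 and 1329 bp, and their summed length equalled 47.0% of the run. It lay in the stretch of 29.2 kb between LOC5517363 and LOC5517350, which held 44 peaks in all, with peaks outside the set on both sides of the run.

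The next largest runs varied in spacing. The run between LOC116612347 and LOC5496869 on chromosome 12 (bases 5094591 to 5103875) held 22 distal peaks in 9.29 kb, a median of 406 bp apart, with a summed length of 59.2% of the run. On chromosome 4, bases 5086038 to 5098642 between LOC116618551 and LOC116618548 held 21, with starts up to 2168 bp apart and a summed length of 41.6% of the run. On chromosome 13, bases 756545 to 768523 between LOC5521605 and LOC5521606 held 21 as well, with 43.8%. On chromosome 6, bases 9608263 to 9620987 between LOC5519867 and LOC5519868 held 19, with 37.3%, and the widest distance between their starts, 3620 bp, held peaks outside the set. No peak in these 5 runs was more than 15.5 kb from a coding gene. These numbered symbols are all that the annotation gives, with no product.

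**Figure D2:**
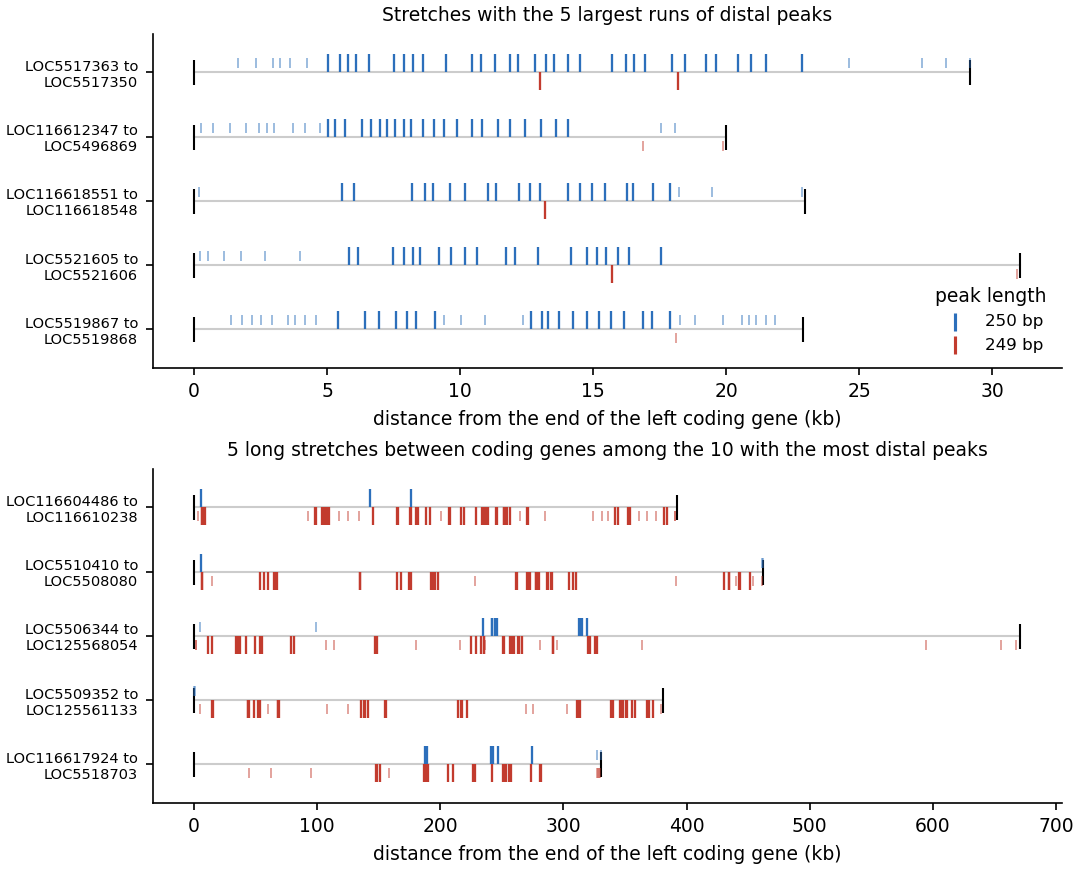
Position of every peak in 10 stretches between coding genes, in kb from the end of the left coding gene; black bars mark the edges of the stretch, long ticks are distal peaks, short pale ticks are peaks outside the set, and 250-bp peaks are drawn above the line and the peaks 1 bp shorter below it. The 5 stretches with the largest runs (upper panel, 20.0 to 31.1 kb long) hold mostly 250-bp peaks, and the 5 long stretches (lower panel, 330 to 671 kb) hold scattered groups of mostly the shorter peaks.

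The stretches with the most distal peaks were of another kind. Of the 10 with the most, 8 were 193 to 810 kb long and held 291 distal peaks together, and only 2 were short, those of the 2 largest runs. The first, 392 kb between LOC116604486 and LOC116610238 at bases 31508 to 423802 of chromosome 12, held 50 distal peaks. The second, 462 kb between LOC5510410 and LOC5508080 on chromosome 5 (bases 16080230 to 16541998), held 46. The third, 671 kb between LOC5506344 and LOC125568054 on chromosome 6 (bases 17374178 to 18045366), held 45, and the fourth, 381 kb between LOC5509352 and LOC125561133 on chromosome 3 (bases 18386910 to 18768129), held 39. These 4 long stretches had 0.670 to 1.27 distal peaks per 10 kb, against 11.7 and 11.0 per 10 kb in the 2 short ones.

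Next in order were 330 kb between LOC116617924 and LOC5518703 on chromosome 4, with 30 distal peaks, and 193 kb between LOC116614937 and LOC125559783 on chromosome 14, with 26. The remaining 2 of the 8 long stretches lay beyond the last coding gene of a chromosome. The one past LOC125570141 on chromosome 8 held 31 distal peaks, and the one past LOC125572464 on chromosome 9 held 24. In all, 177 distal peaks (4.80%) lay in stretches at chromosome ends.

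Assigned to the coding gene with the nearest end, the distal peaks fell to 1120 of 19206 coding genes (5.83%). The median of these genes had 2, and 400 had 1. A group of 59 genes with 10 or more received 24.7% of the set. LOC5506344, on chromosome 6, had the most, 45 distal peaks, up to 327 kb away, which were 45 of its 67 assigned peaks. LOC125570141 followed with 31, LOC5518703 with 30 and LOC125561133 with 29. LOC5508080, LOC116604486 and LOC116610238 had 25 each, LOC125572464 had 24, LOC125559783 had 23 and LOC5510410 had 22. All 10 border one of the 8 long stretches, so nearness by position picks out the edges of the largest gene-poor stretches and does not assign a target.

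The coding genes next to stretches with distal peaks were then set against those next to stretches without any, a comparison added after the data were seen. Of stretches over 10 kb between coding genes, 805 had distal peaks and 715 had none. The positions of peaks and genes set these groups apart, and a peak at a gene end could itself be the neighbour that admitted a distal peak. The comparison is therefore a description. The gene end facing the stretch had a peak within 500 bp in 38.5% ± 2.57 of cases beside stretches with distal peaks and in 36.5% ± 4.17 beside stretches without (SD, n = 15 chromosomes). The difference of 1.96 ± 4.44 percentage points did not pass the test (exact sign-flip permutation test, two-sided and over chromosomes, adjusted p = 0.33 over 3 measures; higher on 9 of 15 chromosomes). The flanking genes had 1.76 ± 0.117 annotated transcripts each beside stretches with distal peaks and 1.82 ± 0.151 beside those without (adjusted p = 0.33, exact sign-flip permutation test). Their mean log2 span in bp was 12.55 ± 0.16 and 12.55 ± 0.20 (adjusted p = 0.93, exact sign-flip permutation test). None of the 3 measures separated the stretches beyond the spread between chromosomes. The stretches with distal peaks were longer, with a median of 19.6 kb against 13.4 kb, and so had more sequence beyond 5 kb from their edges in which a distal peak could lie. Among stretches of 10 to 15 kb, with medians of 12.6 kb and 11.65 kb, the difference in facing gene ends with a peak was 1.60 ± 7.68 percentage points (adjusted p = 0.43, exact sign-flip permutation test).

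Other annotated genes lie in distal sequence too. The selection used their positions through the exclusion of lncRNA gene bodies. A peak inside an lncRNA gene could still serve as the neighbour that admitted a distal peak, and it was the nearest peak for 135 of them. Isolated peaks were left out of the comparison below in every class, while all distal sequence was counted. How far this and the neighbours inside lncRNA genes shape the differences was not tested. Since the positions of the peaks chose the set, the p-values here only describe how even the differences were over chromosomes. The share of distal peaks within 1 kb of a gene of each class was compared with the share of distal sequence as close to such genes, in 6 classes, by exact sign-flip permutation over the 15 chromosomes, two-sided and with Benjamini-Hochberg adjustment. This comparison too was added after the data were seen. Outside the lncRNA class, peaks and sequence inside the gene itself counted as within 1 kb. Long non-coding RNAs (lncRNAs) are transcripts without a recognised protein product, often made from their own promoters. Within 1 kb of an lncRNA gene lay 322 distal peaks, or 8.53% ± 2.03 of a chromosome's distal peaks, against 2.27% ± 1.14 of its distal sequence (SD, n = 15). The excess was 6.25 ± 1.24 percentage points and positive on 15 of 15 chromosomes (adjusted p = 0.00037, exact sign-flip permutation test).

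In density, this was 416 distal peaks per Mb within 1 kb of lncRNA genes and 92.4 per Mb elsewhere in distal sequence. The density was highest next to the lncRNA gene, 565 per Mb within 250 bp, and was 417 per Mb at 250 to 500 bp, 332 per Mb at 500 to 1000 bp, 368 per Mb at 1 to 2 kb and 245 per Mb at 2 to 5 kb. Beyond 5 kb it was 79.8 per Mb. Since long stretches were sparsely occupied, the comparison was repeated in stretches between coding genes of up to 40 kb. There the densities were 506 per Mb within 1 kb of an lncRNA gene and 265 per Mb elsewhere (difference in share 4.53 ± 2.86 percentage points, positive on 14 of 15 chromosomes, adjusted p = 0.00073, exact sign-flip permutation test). Of 3250 lncRNA genes on the chromosomes, 225 had a distal peak within 1 kb. The annotation used gives no strand, so the start of an lncRNA could not be told from its other end.

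**Figure D3:**
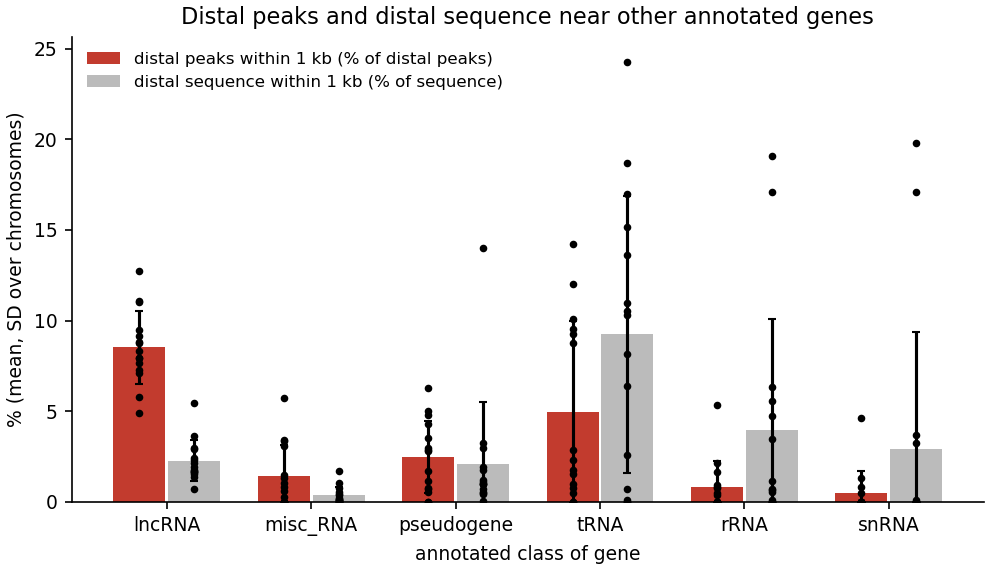
Share of distal peaks (red) and of distal sequence (grey) within 1 kb of annotated genes of 6 classes, as the mean over 15 chromosomes with SD error bars; dots are the chromosomes. Gene bodies count as within 1 kb, except those of lncRNA genes, which the selection excluded. For lncRNA genes the share of distal peaks is 8.53% against 2.27% of the sequence, and for tRNA genes 4.97% against 9.23%.

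Genes for transfer RNAs, which RNA polymerase III reads, were mostly found in distal sequence, 7136 of 9535, with 1511 of them on chromosome 7 and 1136 on chromosome 11. Within 1 kb of them lay 178 distal peaks, 4.97% ± 5.01 of a chromosome's distal peaks against 9.23% ± 7.63 of its distal sequence (SD, n = 15). The difference of -4.26 ± 6.58 percentage points passed the test (adjusted p = 0.018, exact sign-flip permutation test) and was negative on 11 of 15 chromosomes. It was not called in stretches of up to 100 kb, where 17 distal peaks were left near tRNA genes (-2.02 percentage points, adjusted p = 0.19, exact sign-flip permutation test). Of the 178 peaks near tRNA genes, 171 had the shorter of the peak lengths described below, against 2028 of all 3691 distal peaks. Among the 17 in stretches of up to 100 kb, 12 had that length. In stretches over 100 kb between coding genes, 534 of all 586 distal peaks had it. Whether the count is particular to tRNA genes was not tested.

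Ribosomal RNA genes lay in distal sequence almost without exception, 4031 of 4060. Their surroundings held 29 distal peaks at 15.8 per Mb, compared with 103 per Mb elsewhere, but the difference in share was not called (-3.13 ± 5.98 percentage points, adjusted p = 0.053, exact sign-flip permutation test). Small nuclear RNA genes, whose products build the spliceosome, had 20 distal peaks nearby at 14.7 per Mb (-2.44 ± 6.47 percentage points, adjusted p = 0.30, exact sign-flip permutation test). Chromosome 5 had 3488 of the rRNA genes in distal sequence, and 765 of 1672 snRNA genes there were on chromosome 12 and 585 on chromosome 8, so few chromosomes carry these 2 comparisons. The rRNA difference was called without chromosome 12, at -3.49 percentage points (adjusted p = 0.016, exact sign-flip permutation test), and without chromosome 1, at -3.37 (adjusted p = 0.05, exact sign-flip permutation test). Whether reads from repeated genes could be placed on the genome was not tested.

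Genes annotated as misc_RNA were few, 17 in distal sequence of 62 in all. They had 53 distal peaks within 1 kb, of which 39 had their centre inside the gene. This was 434 per Mb against 98.0 per Mb elsewhere, and the difference in share was called (1.04 ± 1.37 percentage points, positive on 10 of 15 chromosomes, adjusted p = 0.0095, exact sign-flip permutation test). The difference was no longer called in stretches of up to 40 kb, at 0.576 percentage points (adjusted p = 0.064, exact sign-flip permutation test). Pseudogenes had 98 distal peaks within 1 kb, of which 50 had their centre inside the pseudogene. The share did not differ beyond the spread between chromosomes (0.396 ± 3.17 percentage points, adjusted p = 0.70, exact sign-flip permutation test). Chromosome 5 held 494 of the 576 pseudogenes in distal sequence, and without it the difference was 1.12 percentage points and was called (adjusted p = 0.025, exact sign-flip permutation test).

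The peaks of the list have 2 lengths, apart from a single peak cut off at a sequence start: 250 bp and 1 bp less. The peaks of the lesser length are called short here, and the source of the difference is not given in the sources used here. The length was not used by the selection. Of the 3691 distal peaks, 2028 (54.9%) were short and 1663 were 250 bp long. Among all 112673 peaks on the chromosomes, 31040 (27.55%) were short. Per chromosome, 55.6% ± 8.69 of distal peaks were short, with the lowest share on chromosome 13 (40.8%) and the highest on chromosome 5 (70.5%). Intergenic peaks up to 5 kb from a coding gene had 20.5% ± 2.97. The excess among distal peaks was 35.1 ± 8.33 percentage points, on 15 of 15 chromosomes (two-sided exact sign-flip permutation test, adjusted p = 6.1e-05 over 3 comparisons, the smallest value that 15 chromosomes can give), and the 2 ranges did not overlap.

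Isolated distal peaks were nearly all short, 439 of 470. The distal peaks had a lower share on 15 of 15 chromosomes, with a difference of -37.5 ± 8.70 percentage points (adjusted p = 6.1e-05, exact sign-flip permutation test). Isolated peaks also lay farther from coding genes, with a median of 28748.5 bp against 8911 bp. At 5 to 20 kb, a band added after the data were seen, 48.6% of distal and 86.0% of isolated peaks were short. The difference there was -37.4 ± 13.2 percentage points, on 15 of 15 chromosomes (adjusted p = 9.2e-05, exact sign-flip permutation test). Peaks over 5 kb from a gene end but inside a coding gene stood between the intergenic sets, at 43.8% ± 5.48. The distal peaks exceeded them by 11.8 ± 7.45 percentage points on 15 of 15 chromosomes (adjusted p = 6.1e-05, exact sign-flip permutation test), with the smallest excess, 0.778, on chromosome 1. The size of this excess followed the limits chosen: it was 3.78 percentage points on 14 of 15 chromosomes with a distance limit of 2 kb, 21.8 on 14 of 15 with 10 kb, and 7.55 on 12 of 15 when the next peak had to start within 2000 bp, each past the threshold. The excess over intergenic peaks nearer to genes was 22.2 percentage points with the 2-kb limit.

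**Figure D4:**
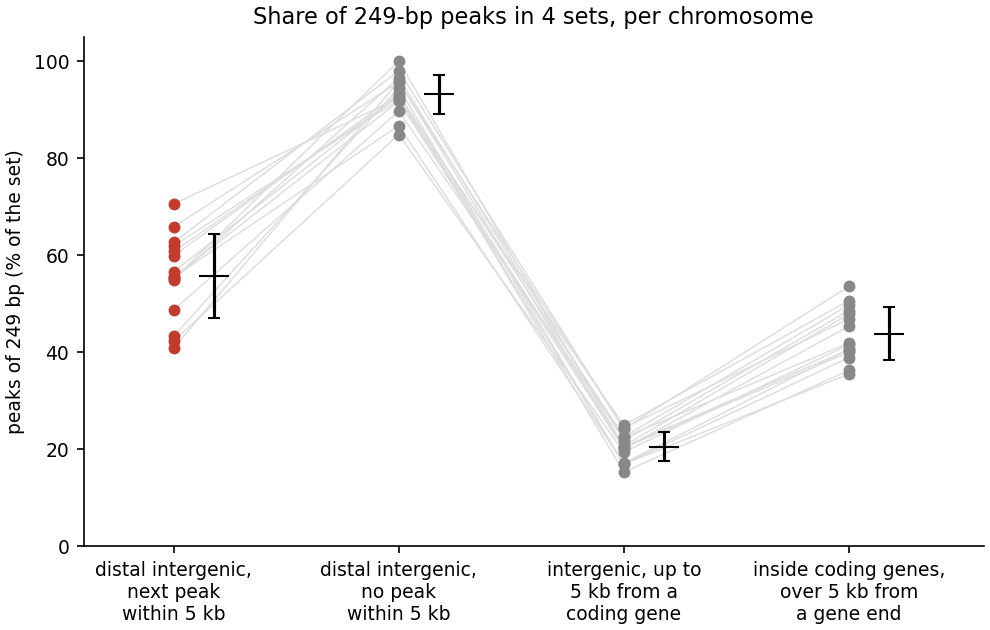
Percentage of short peaks (1 bp under 250 bp) in 4 sets of peaks; each dot is 1 of 15 chromosomes, grey lines join the sets of a chromosome, and the bars beside the dots give the mean and SD. Distal peaks with a neighbour (red, mean 55.6%) lie below the isolated distal peaks (93.1%), above the intergenic peaks near coding genes (20.5%) and partly among the peaks deep inside genes (43.8%).

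Length also followed the distance from coding genes. Among distal peaks the share of short peaks was 44.6% at 5 to 10 kb, 55.8% at 10 to 20 kb, 82.8% at 20 to 40 kb, 93.4% at 40 to 80 kb and 84.8% beyond. Inside coding genes, among peaks that also had a neighbour within 5000 bp, it was 38.9% at 5 to 10 kb, 44.2% at 10 to 20 kb, 50.4% at 20 to 40 kb and 55.8% at 40 to 80 kb. Over all peaks inside genes, with or without a neighbour, the excess among distal peaks was 4.13 ± 7.08 percentage points at 5 to 10 kb, on 10 of 15 chromosomes (adjusted p = 0.039, exact sign-flip permutation test), 12.1 ± 12.6 at 10 to 20 kb on 12 of 15 (adjusted p = 0.0038, exact sign-flip permutation test), and 30.5 ± 20.7 at 20 to 40 kb on 13 of 15 (adjusted p = 0.00037, exact sign-flip permutation test). The adjustment was over the 3 comparison sets within a band and not over the bands. These bands were chosen after the data were seen, and whether the excess differs between them was not tested. Beyond 80 kb, where 290 distal peaks lay, there was no peak inside a gene to set against them.

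**Figure D5:**
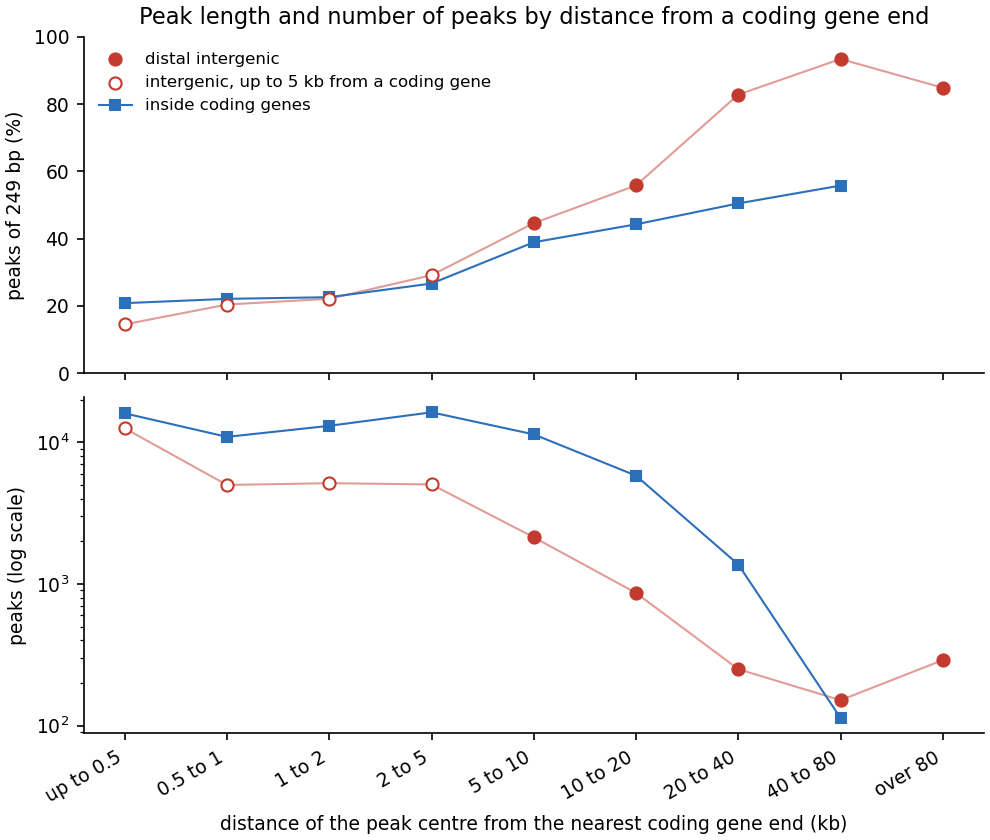
Percentage of short peaks, 1 bp under 250 bp (upper panel) and number of peaks (lower panel, log scale) by distance of the peak centre from the nearest end of a coding gene in kb, for peaks with another peak start within 5000 bp; filled circles are distal peaks, open circles intergenic peaks nearer to coding genes, and squares peaks inside coding genes. The share of short peaks among distal peaks is 44.6% at 5 to 10 kb and 93.4% at 40 to 80 kb, against 38.9% and 55.8% inside coding genes.

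The largest runs and the long stretches held peaks of different length. In the 7 runs of 16 to 34 distal peaks, 7 of 151 peaks (4.64%) were short, and in the 65 runs of 8 to 15 the share was 31.2%. Runs of 4 to 7 had 57.8%, runs of 2 or 3 had 70.2% and single distal peaks 58.5%. Of the 5 largest runs, those on chromosomes 12 and 6 had no short peak, those on chromosomes 4 and 13 had 1 each and that on chromosome 1 had 2. Stretches over 100 kb showed the reverse, with 534 of 586 distal peaks (91.1%) short, compared with 42.5% in stretches of 10 to 20 kb. The stretch with 39 distal peaks on chromosome 3 and that with 31 at the end of chromosome 8 had no 250-bp peak among them. At chromosome ends as a whole, 132 of 177 (74.6%) were short. These shares are descriptions, since runs were set apart by the spacing of the same peaks and stretches by the coding genes that also chose the set.

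Distal peaks near lncRNA genes were more often 250 bp long. Within 1 kb of an lncRNA gene, 35.0% ± 14.0 were short, against 57.6% ± 8.88 of the other distal peaks (SD, n = 15 chromosomes). It was lower near lncRNA genes on 15 of 15 chromosomes, with a difference of -22.6 ± 13.9 percentage points (exact sign-flip permutation test, unadjusted p = 6.1e-05), with 10 to 44 such peaks per chromosome. In stretches of up to 40 kb between coding genes, where short peaks were rarer, the shares were 29.4% ± 15.4 near lncRNA genes and 44.9% ± 8.57 among the other distal peaks. The difference there was -15.5 ± 15.6 percentage points, with 14 of 15 chromosomes lower near lncRNA genes (exact sign-flip permutation test, unadjusted p = 0.0014). Because the peaks near lncRNA genes were less often short, leaving them out could only raise the share among distal peaks, so this is no check of the excess. The excess was then 37.1 percentage points over the intergenic peaks up to 5 kb from a coding gene. Over the peaks deep inside genes it was 13.75 percentage points.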

How the data were processed

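The authors deposited 1 peak list for the whole series; its starts and ends are in bp, and its score and strand columns are empty. The peak caller, the threshold and the way libraries were joined are not given in the sources used here. Per the submitters' processing notes, bcl2fastq, Cell Ranger ARC 2.0.1 and Cell Ranger 7.0.0 were used, with no role stated. Starts were read as counted from 0 and are printed counted from 1. The 15 sequences with chromosome-type names were taken, in name order, as chromosomes 1 to 15 of the RefSeq assembly jaNemVect1.1: 22.1% to 29.7% of peak centres lay within 500 bp of a coding gene end in that order, against 6.38% to 16.1% on any other chromosome. The gene table gives spans but no strand, exons or product names, and no genome was used. A chromosome was taken to end with its last gene or peak.

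Shares were compared by exact sign-flip permutation over the 15 chromosomes, two-sided and through all 32768 sign patterns, with Benjamini-Hochberg adjustment and a threshold of 0.05, in Python 3.11.15 with numpy 2.4.6. Chromosomes are not biological replicates, so the p-values describe this list and not animals. The length test was tested on simulated data in which the length of each peak was drawn on its own. In the list, 76.6% of neighbouring pairs of distal peaks in a run had equal lengths, against 50.5% from the overall shares alone. The simulation did not cover such grouping. The distal peaks, the comparison sets and the tests were chosen with earlier results of these data known, and the comparisons with lncRNA and other RNA genes and with flanking genes were added after seeing the data. Named are the 10 stretches and 10 coding genes with the most distal peaks, the 5 largest runs, the 3 farthest peaks and those nearest to each limit. The planned tests on gene strand, GC content, product names and printed sequences were not made. Leaving out chromosomes, other limits and other gene sets were tried as alternatives.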

Additional observations from a re-analysis of the deposited data

Results flagged for a closer look

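On the 11 sequences other than the 15 chromosomes the list holds 55 peaks, which no comparison used. They were picked out only because they lie outside the main measurement; no number of peaks was predicted for these sequences, and none was tested. The gene table names no position on these sequences, so whether any of them is distal was not analysed here.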

How the results depend on the processing

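The size of the set follows the distance limit. There were 3691 distal peaks in 825 stretches, but 8738 in 2249 with a limit of 2 kb and 1555 in 287 with a limit of 10 kb. The other settings (next peak within 2000 bp, every annotated gene excluded, whole peaks in place of centres, overlapping peaks merged for the number of peaks alone) gave 3136 to 3564 peaks and, without the last, 702 to 813 stretches. The 3 comparisons of peak length kept their direction and stayed past the threshold under all alternatives run, with the excess over peaks deep inside genes lowest with a limit of 2 kb, at 3.78 percentage points. Leaving out each chromosome moved the differences to between 34.1 and 36.2 (near intergenic), -38.6 and -36.2 (isolated) and 10.9 and 12.6 percentage points (inside genes). The higher share near lncRNA genes also kept its call in 19 of 19 alternatives. With the 1-kb window the difference lay between 4.53 percentage points (stretches of up to 40 kb) and 6.41 (without chromosome 9). Windows of 500 bp and 2000 bp, which measure other shares, gave 4.10 and 10.8. The length result near lncRNA genes kept its call in 17 of 17, from -23.7 to -15.5. The lower share near tRNA genes lost its call in stretches of up to 100 kb (-2.02) and 40 kb (-0.118), and the higher share near misc_RNA genes in those of up to 40 kb (0.576). Uncalled results changed in some: pseudogenes turned to -0.478 in stretches of up to 40 kb and were called without chromosome 5 (1.12, adjusted p = 0.025, exact sign-flip permutation test), and rRNA genes were called without chromosome 1 (-3.37) or 12 (-3.49). The log2 span of flanking genes turned to -0.054 in stretches of 10 to 20 kb and -0.064 in those of 10 to 15 kb, with no call. The causes were not tested. No paired analysis was possible because the list carries no library, and the alternatives on strand and GC content were not run, since neither was at hand. Read depth behind the list is unknown, so weak or rare distal elements may be missing from it.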
